A study of Mus musculus with 14 samples.

Results

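The LIF receptor and gp130 cytokine genes were followed through RNA sequencing of mouse dorsal root ganglia, the clusters of sensory neuron cell bodies beside the spinal cord. The 9 genes are Lif, Clcf1, Cntf and Il6 (ligands), Lifr, Il6st, Osmr and Cntfr (receptors) and Socs3 (inhibitor), and all 9 are listed in both tables of gene counts, among 56691 genes in the first and 20833 in the second. They were chosen by gene symbol from a list drawn up with the results of both comparisons known, so their levels and calls are described here and give no independent support to any pattern. The first table holds 4 wild-type libraries and 4 libraries of 5xFAD mice, a transgenic line that expresses mutant human amyloid precursor protein and presenilin under the neuronal Thy1 promoter and serves as a model of Alzheimer's disease. The second table holds 3 libraries of control mice with the floxed p75 genotype and 3 labelled as knockouts on that same floxed background, where p75 (gene Ngfr) is the neurotrophin receptor whose role in sensory innervation of bone the study addressed. The labels used here give no age, sex or strain, no Cre driver for the knockout, and no statement on whether animals were pooled or replicates came from separate animals, so p-values measure the spread between these libraries only.

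LIF, CLCF1, CNTF and IL-6 belong to the interleukin-6 family, and the receptors of these ligands share the signalling chain gp130, the product of Il6st. LIF binds a heterodimer of LIFR and gp130, CNTF and CLCF1 add the non-signalling CNTFR alpha subunit to these chains, and OSMR pairs with gp130 to receive oncostatin M. Ligand binding activates JAK kinases and the transcription factor STAT3, and STAT3 induces SOCS3, which binds gp130 and JAK and shuts the signal off. In peripheral nerve this family is known for survival and regeneration of sensory neurons: LIF and IL-6 are induced by nerve injury, and CNTF is stored in myelinating Schwann cells.

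The promoters of the gene with the clearest difference between groups, Lifr, and of the feedback gene Socs3 are shown because Socs3 was the one gene of the 9 whose window held the core STAT binding motif. The windows run from 250 bases before to 50 bases after an annotated start and are from RefSeq on GRCm38.p6. The motif TTCNNNGAA reads the same on both strands, so each match counts once, and it is set in capitals. It occurred in 2726 of 32851 such windows, or 8.30%, and in 1 of the 14 windows listed for 8 of the 9 genes. Clcf1 is named only. In the Socs3 window (chr11:117969317-117969616, minus strand) the first base of the motif lies at -154 from the start. The Lifr windows are an upstream one of 53 CpG and 81.3% G and C (chr15:7129322-7129621, plus strand) and a downstream one of 4 CpG and 53.3% (chr15:7140292-7140591, plus strand), against a median of 7 CpG over all windows. The deposited counts are per gene and do not separate the starts.
Socs3 promoter: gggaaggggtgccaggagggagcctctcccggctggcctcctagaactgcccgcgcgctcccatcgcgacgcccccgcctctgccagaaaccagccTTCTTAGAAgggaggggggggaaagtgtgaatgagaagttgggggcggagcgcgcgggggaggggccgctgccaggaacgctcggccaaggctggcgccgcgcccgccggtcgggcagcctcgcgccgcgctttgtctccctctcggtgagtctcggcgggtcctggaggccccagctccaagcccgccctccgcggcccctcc
Lifr upstream promoter: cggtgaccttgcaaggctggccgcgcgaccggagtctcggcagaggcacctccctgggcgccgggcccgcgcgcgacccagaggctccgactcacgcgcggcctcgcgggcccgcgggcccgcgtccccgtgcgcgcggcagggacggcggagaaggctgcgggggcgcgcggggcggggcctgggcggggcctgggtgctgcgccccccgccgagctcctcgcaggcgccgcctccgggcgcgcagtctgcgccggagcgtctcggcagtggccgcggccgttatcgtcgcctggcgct
Lifr downstream promoter: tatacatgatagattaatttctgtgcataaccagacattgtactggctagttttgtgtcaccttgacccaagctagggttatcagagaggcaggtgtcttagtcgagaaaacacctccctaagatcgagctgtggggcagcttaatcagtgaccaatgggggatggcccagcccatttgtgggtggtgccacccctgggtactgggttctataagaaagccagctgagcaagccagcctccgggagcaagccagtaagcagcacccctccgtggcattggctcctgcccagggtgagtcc

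Total counts were 13907070 to 19837836 per library in the 5xFAD table and 4731119 to 6052690 in the p75 table, and the common dispersion of edgeR was 0.023 and 0.3, so the second table gives the less precise fold changes. Levels below are CPM, a gene's count scaled to the library total, with no further scaling. The samples are labelled as sensory neurons, and all 12 pan-neuronal markers were detected, and so were all 10 Schwann cell markers. The pan-neuronal markers summed to 567 to 1155 CPM in the 5xFAD table and 203 to 1100 CPM in the p75 table, and the Schwann cell markers to 1879 to 5332 and 4845 to 19006 CPM, sums that are not scaled for gene length. The values are thus those of a mixed bulk tissue, in which fewer cells of a type and less RNA per cell cannot be told apart. In both tables libraries stand apart by replicate number: replicates 3 and 4 differed from 1 and 2 in the 5xFAD table, and replicate 3 from 1 and 2 in the p75 table. Fold changes within these sets of libraries are therefore given beside those over all libraries. The 5xFAD table's split was less clear in wild type, by the correlation of deviations from the group mean. Wild-type replicate 4 correlated by 0.0015 and 0.0676 with 5xFAD replicates 3 and 4, and wild-type replicate 3 by 0.389 and 0.372. Wild-type replicate 1 correlated by 0.118 and 0.100 with 5xFAD replicates 1 and 2, and wild-type replicate 2 by 0.315 and 0.288. Ngfr, the targeted gene, had floxed values of 135, 130 and 87.7 CPM and knockout values of 22.5, 24.1 and 35.9 CPM, so each knockout library was the lower.

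In 5xFAD ganglia the mean level of Lifr was 193% of that in wild type and that of Clcf1 71.2%, while gp130 itself and the other receptors, ligands and Socs3 overlapped between genotypes. By the edgeR quasi-likelihood test over 15845 genes (Benjamini-Hochberg adjusted p under 0.05), 2 of the 9 genes were called, Lifr higher and Clcf1 lower, where 3.60% of all genes were called, 2.56% higher and 1.04% lower. These same 2 genes were the ones whose groups did not overlap in CPM, where 11.0% of all genes had no overlap. Nothing is read from these counts, since the list was drawn up from this comparison. The median log2 fold change of the 9 genes was 0.22, with 6 above 0 and 3 below, and that of all genes tested was 0.0019.

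**Figure D1:**
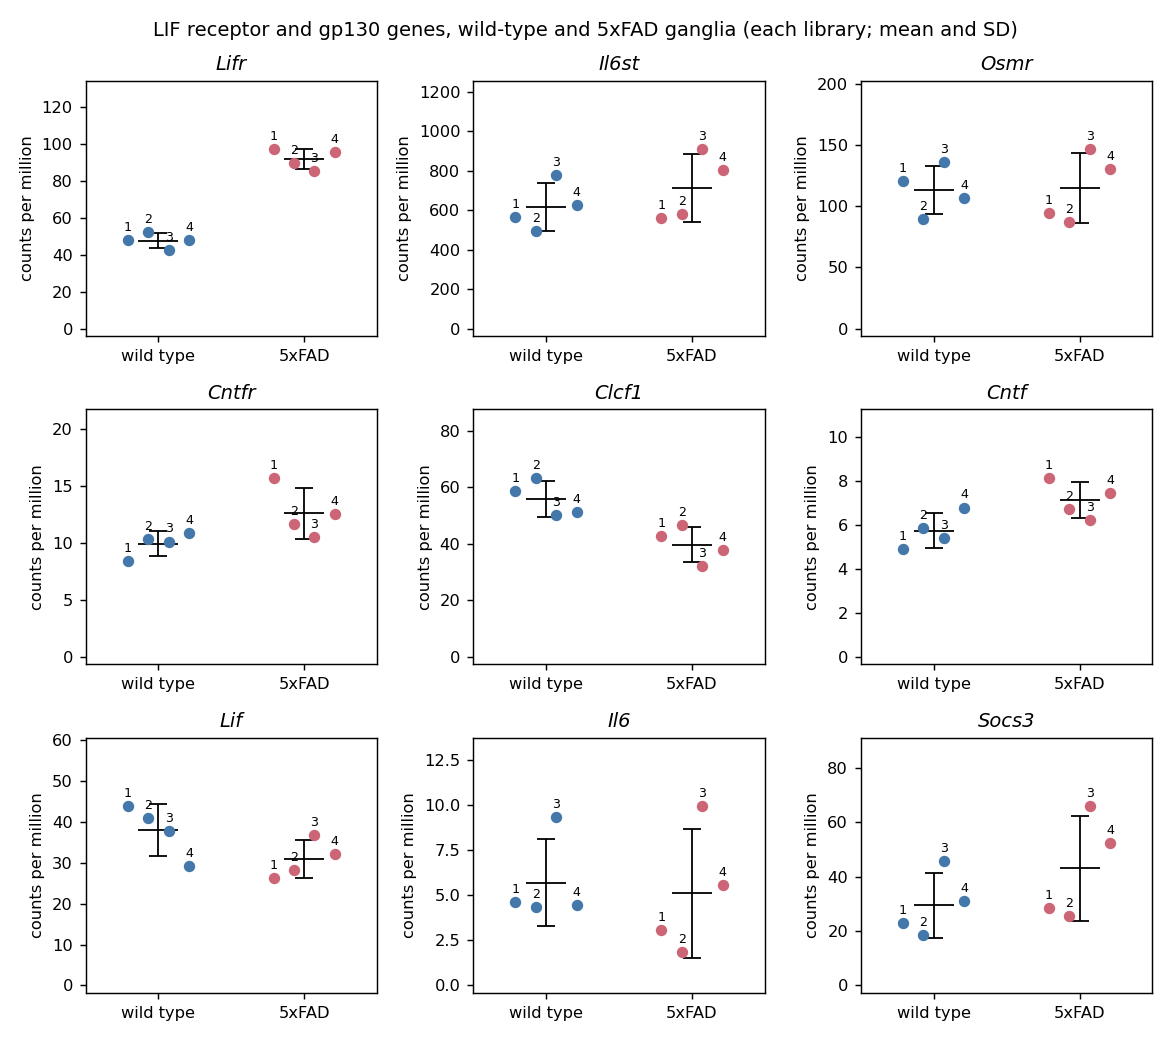
CPM (vertical axis) of the 9 genes in each wild-type and 5xFAD library, numbered by replicate, with the mean and SD of 4 libraries per group as bars. Lifr sits at 42.3 to 52.3 CPM in wild type and 85.4 to 97.0 CPM in 5xFAD, Clcf1 is lower in every 5xFAD library than in every wild-type one, and in the Il6st, Il6 and Socs3 panels the highest library of each group is replicate 3.

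Among the ligands, Clcf1, which encodes a ligand of the CNTF receptor, was at 58.7, 63.3, 50.0 and 51.1 CPM in wild-type libraries 1 to 4 and at 42.7, 46.5, 32.1 and 37.7 CPM in 5xFAD libraries 1 to 4. The lowest wild-type library lay above the highest 5xFAD library, and the means were 55.8 ± 6.35 and 39.7 ± 6.25 CPM (SD, n = 4 each). The log2 fold change was -0.48 (SE 0.11, edgeR adjusted p = 0.0448), just inside the threshold. It was -0.45 among replicates 1 and 2 and -0.53 among replicates 3 and 4. Leaving out single libraries kept the direction, with log2 fold changes of -0.40 to -0.56, but the call held in 1 of 8 such fits, the one without 5xFAD replicate 2 (edgeR adjusted p = 0.0316). Without wild-type replicates 1, 2, 3 and 4 in turn the edgeR adjusted p was 0.145, 0.103, 0.0529 and 0.0670, and without 5xFAD replicates 1, 3 and 4 it was 0.0905, 0.0678 and 0.140. In the GENCODE annotation of GRCm38, Clcf1 overlaps AC109138.7 on the same strand, so its count may include reads of that gene.

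Lif, the ligand that names the receptor, was at 43.8, 40.9, 37.6 and 29.2 CPM in wild type and at 26.2, 28.1, 36.7 and 32.2 CPM in 5xFAD. The groups overlapped, since 5xFAD replicates 3 and 4 lay within the wild-type range while 5xFAD replicates 1 and 2 lay below it. The log2 fold change over all libraries was -0.29 (SE 0.14, edgeR adjusted p = 0.356). Among replicates 1 and 2 alone it was -0.64 (edgeR adjusted p = 0.000294), and among replicates 3 and 4 alone it was 0.05. The test of that difference, an interaction of genotype with the 2 sets of replicates, gave 0.68 on the log2 scale (SE 0.17, unadjusted p = 0.00108, edgeR adjusted p = 0.0742), which did not pass the threshold.

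Il11 encodes interleukin-11, another gp130 ligand, and was named for its pattern after its values were seen. It was at 24.5, 25.8, 27.5 and 14.2 CPM in wild type and at 4.16, 4.39, 30.9 and 24.2 CPM in 5xFAD. As with Lif, 5xFAD replicates 1 and 2 were the low libraries. Its interaction was 2.95 (SE 0.47, unadjusted p = 0.000782, edgeR adjusted p = 0.0608) and also missed the threshold, which 189 genes passed.

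Cntf, the injury factor of Schwann cells, was scarce at 4.92, 5.87, 5.43 and 6.81 CPM in wild type and 8.16, 6.75, 6.26 and 7.45 CPM in 5xFAD. Its groups overlapped and the log2 fold change was 0.32 (SE 0.15, edgeR adjusted p = 0.335), being 0.47 in replicates 1 and 2 and 0.17 in replicates 3 and 4. Cntf lies within the locus of Zfp91 on the same strand in that annotation, so reads of the pair may not be fully separated. Il6, which encodes interleukin-6, was at 4.62, 4.37, 9.30 and 4.44 CPM in wild type and 3.08, 1.83, 9.92 and 5.57 CPM in 5xFAD, so replicate 3 was the highest of both groups. Its log2 fold change was -0.17 (SE 0.51, edgeR adjusted p = 0.910), being -0.88 in replicates 1 and 2 and 0.17 in replicates 3 and 4. Without single libraries it ranged from -0.71 (5xFAD replicate 3 left out) to 0.18 (wild-type replicate 3 left out).

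Lifr, the receptor chain that LIF, CNTF and CLCF1 use with gp130, was at 47.6, 52.3, 42.3 and 47.8 CPM in wild type and at 97.0, 89.7, 85.4 and 95.5 CPM in 5xFAD. Every 5xFAD library was above every wild-type one, and the lowest 5xFAD value was 163% of the highest wild-type value. The means were 47.5 ± 4.10 and 91.9 ± 5.37 CPM (SD, n = 4 each), and the log2 fold change was 0.96 (SE 0.07, edgeR adjusted p = 0.000359). It was 0.90 among replicates 1 and 2 and 1.01 among replicates 3 and 4. Lifr was called in 18 of 18 alternative fits, with log2 fold changes of 0.90 to 1.01.

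Il6st, the gene of gp130, was at 568, 495, 776 and 625 CPM in wild type and 560, 578, 909 and 805 CPM in 5xFAD. The groups overlapped, and the log2 fold change was 0.22 (SE 0.20, edgeR adjusted p = 0.659), being 0.10 in replicates 1 and 2 and 0.29 in replicates 3 and 4. It ranged from 0.07 without 5xFAD replicate 3 to 0.35 without wild-type replicate 3, and with the replicate block it was 0.21 (edgeR adjusted p = 0.0600). Osmr, the oncostatin M receptor chain, was at 120, 89.8, 136 and 106 CPM in wild type and 94.7, 87.0, 147 and 130 CPM in 5xFAD, with a log2 fold change of 0.03 (SE 0.20, edgeR adjusted p = 0.968). The sign of the Osmr value turned with the libraries, from -0.21 in replicates 1 and 2 to 0.20 in replicates 3 and 4. Cntfr, the ligand-binding CNTF receptor subunit, was at 8.41, 10.4, 10.1 and 10.9 CPM in wild type and 15.7, 11.7, 10.6 and 12.5 CPM in 5xFAD. Only 5xFAD replicate 3 lay inside the wild-type range, and the log2 fold change was 0.35 (SE 0.14, edgeR adjusted p = 0.256), being 0.55 in replicates 1 and 2 and 0.14 in replicates 3 and 4.

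Socs3, the STAT3-induced inhibitor of gp130 signalling, was at 23.0, 18.5, 45.7 and 31.0 CPM in wild type and 28.4, 25.7, 66.0 and 52.4 CPM in 5xFAD. Within each replicate number the 5xFAD library was the higher one, but replicates 1 and 2 of 5xFAD lay inside the wild-type range. The log2 fold change was 0.54 (SE 0.41, edgeR adjusted p = 0.590). The labels state no pairing by replicate number, and the correlations between libraries given below cannot decide on it. Socs3 was called in 1 of 18 alternative fits, that with the replicate number as a block (0.53, edgeR adjusted p = 0.00148). It was not called with the split as a term (0.52, edgeR adjusted p = 0.0632), in replicates 1 and 2 (0.38, edgeR adjusted p = 0.0657) or in replicates 3 and 4 (0.63, edgeR adjusted p = 0.400). Its value ranged from 0.26 without 5xFAD replicate 3 to 0.83 without wild-type replicate 3.

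Levels can be compared between genes only per length of exon, here CPM per kb with exon lengths of the GENCODE annotation, taken over the wild-type libraries of the 5xFAD table (mean ± SD, n = 4). Il6st stood first at 55.5 ± 10.8 CPM per kb. Clcf1 followed at 14.7 ± 1.67, then Socs3 at 10.2 ± 4.13, Osmr at 9.34 ± 1.63 and Lif at 8.71 ± 1.45 CPM per kb, and each of these overlapped its neighbour in range. Cntf at 5.36 ± 0.747, Lifr at 4.41 ± 0.380, Cntfr at 3.58 ± 0.386 and Il6 at 2.34 ± 0.995 CPM per kb were the lowest, with ranges that overlapped between Cntf and Lifr and between Cntfr and Il6. The RNA of Il6st was thus at 12.6 times the level of that of Lifr per length in wild type and at 7.54 times in 5xFAD. The receptor proteins were not measured.

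**Figure D2:**
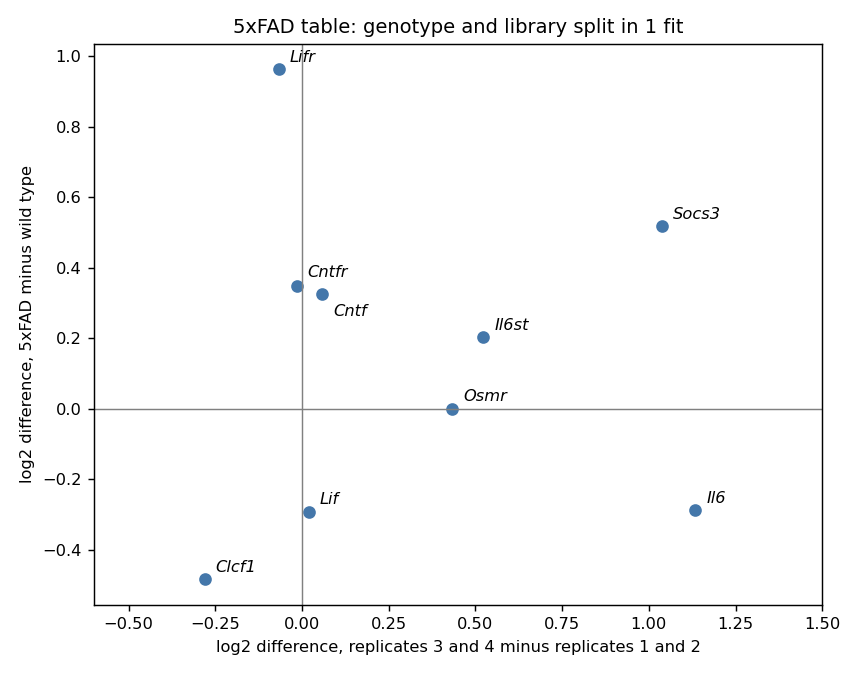
The log2 difference between genotypes (vertical axis) against the log2 difference between replicates 3 and 4 and replicates 1 and 2 (horizontal axis), both from 1 edgeR fit of the 5xFAD table, 1 point per gene. Lifr is high on the genotype axis at a split difference of -0.07, while Il6 and Socs3 lie farthest along the split axis.

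The split of the libraries touched the 9 genes unequally. In a fit with genotype and split together, replicates 3 and 4 were above 1 and 2 by 1.13 on the log2 scale for Il6, 1.04 for Socs3, 0.52 for Il6st and 0.43 for Osmr. The differences were -0.28 for Clcf1, -0.07 for Lifr, 0.06 for Cntf, 0.02 for Lif and -0.02 for Cntfr, and the median over all genes was 0.00027. Fibroblast markers moved with the same split: 7 markers summed to 1820 to 2530 CPM in replicates 1 and 2 and to 3347 to 4783 CPM in replicates 3 and 4. Their part in the values of Il6, Socs3, Il6st and Osmr was not tested.

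Neuronal genes were higher in 5xFAD in the same libraries as Lifr. The 12 pan-neuronal markers summed to 567 to 741 CPM in wild type and 1082 to 1155 CPM in 5xFAD, and 10 of the 12 were called higher, where 2.56% of all genes were. Lifr as a share of that sum was 8.31%, 7.06%, 7.46% and 8.15% in wild-type libraries 1 to 4 and 8.40%, 8.30%, 7.83% and 8.34% in 5xFAD libraries 1 to 4. The shares of the genotypes overlapped, while the CPM values did not. The share depends on how the sum is weighted, and Tubb3 and Uchl1 gave 255 and 165 of the mean sum of 617 CPM in wild type. Their log2 fold changes were 0.65 and 0.35, beside a median of 1.35 over the 12 markers and 0.96 for Lifr. An overlap of shares therefore does not show that Lifr rose as much as the typical neuronal marker. Schwann cell markers summed to 1879 to 3771 CPM in wild type and 3733 to 5332 CPM in 5xFAD, with 0 of 10 called in the edgeR test and all 10 log2 fold changes above 0. Macrophage markers summed to 91.0 to 154 and 36.4 to 140 CPM, with 0 of 8 called and all 8 log2 fold changes below 0 (median -0.57). Endothelial markers summed to 708 to 1007 and 444 to 754 CPM, with 0 of 7 called and all 7 below 0 (median -0.41). No marker of the neuronal, Schwann cell or macrophage lists was at 0 in every library, while the neutrophil, T cell and red cell markers summed to at most 7.06 CPM. The part of these other cells in the Lifr value was not tested.

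**Figure D3:**
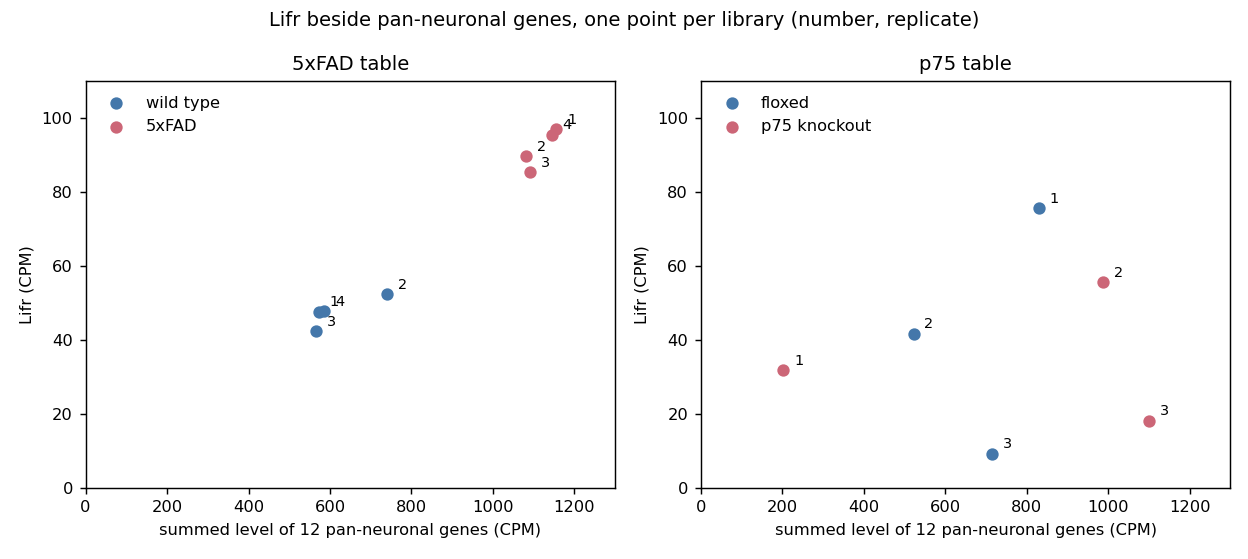
Lifr (vertical axis, CPM) against the summed level of 12 pan-neuronal genes (horizontal axis, CPM), 1 point per library numbered by replicate, for the 5xFAD table and the p75 table. In the 5xFAD table the genotypes form separate groups on both axes, at 567 to 741 and 1082 to 1155 CPM of neuronal genes. In the p75 table both replicate 3 libraries are low in Lifr, at neuronal sums of 714 CPM (floxed) and 1100 CPM (knockout).

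The genes whose pattern was most like Lifr, by Pearson's r on log2(CPM + 1) over the 8 libraries of the 5xFAD table among 11266 genes averaging 5 CPM or more, were Scn10a, a nociceptor sodium channel (r = 0.994), Kcnab2, a potassium channel beta subunit (0.993), Sez6l (0.991), Scg3, a secretory granule protein (0.990), and Add2, a membrane skeleton protein (0.990). These points share the genotype difference, so the r values are a description. Over the 6 libraries of the p75 table the r of the same genes with Lifr was 0.83, 0.03, -0.62, 0.67 and 0.45, so it was lower there for each. Among the 9 cytokine genes, r with Lifr in the 5xFAD table was highest for Cntf at 0.76 and Cntfr at 0.73, and lowest for Clcf1 at -0.74, while in the p75 table these were -0.66, 0.90 and 0.60. Socs3, Il6st and Osmr were at 0.31, 0.21 and -0.11 in the 5xFAD table. In the p75 table they were at 0.92, 0.85 and 0.82, so the 0.83 of Scn10a did not stand out there.

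Of 63 further genes of the pathway in 6 lists, 52 were tested in the 5xFAD table, where 4 were called higher and 2 lower by edgeR, beside 2.56% and 1.04% of all genes, with a median log2 fold change of 0.04. The 4 higher ones all came from the list of injury-induced neuronal genes, a pattern known before the list was made: Gal, the neuropeptide galanin (log2 fold change 2.29, SE 0.50), Sprr1a (2.06, SE 0.25), the growth cone gene Gap43 (1.42, SE 0.19) and the transcription factor Sox11 (1.19, SE 0.23). Gal was scarce, at means of 0.65 CPM in wild type and 3.23 CPM in 5xFAD. The median log2 fold change was 1.42 over the 7 genes of that list tested and 1.35 over the 12 pan-neuronal markers, and the part of the latter in the former was not tested. The injury marker Atf3, a transcription factor of the same list, was not called, at mean levels of 196 and 201 CPM. The 2 lower ones were Icam1, an adhesion molecule listed as a STAT3 target (-0.38, SE 0.07, edgeR adjusted p = 0.0186), and Socs5, a relative of Socs3 (-0.24, SE 0.06, edgeR adjusted p = 0.0476). Among 10 JAK and STAT transducers 0 were called by edgeR, and Stat5b came closest (0.27, SE 0.07, edgeR adjusted p = 0.0659). Stat3 itself was at 0.14 (SE 0.10) and the STAT3 target Serpina3n at 1.33 (SE 0.42, edgeR adjusted p = 0.175). Of the other receptors Il6ra, the interleukin-6 receptor alpha chain, had the smallest p (-0.41, SE 0.15, edgeR adjusted p = 0.204).

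In p75 knockout ganglia none of the 9 genes was called, and each overlapped between the groups. The test called 0 of 11890 genes (edgeR, adjusted p under 0.05), 0% of all, where 140 had an unadjusted p under 0.05, DESeq2 called 6 and limma-voom 0. Of the 9 genes 0 had groups without overlap, where 6.10% of all genes tested had none. Il6 did not pass the filter on low counts, and over the other 8 genes the median log2 fold change was -0.23, 1 being above 0 and 7 below, beside 0.02 over all genes. On simulated data of the same depth and spread 0 of 100 genes changed 2-fold and 0 of 100 changed 4-fold were called, so the missing calls do not show that the genes were alike.

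**Figure D4:**
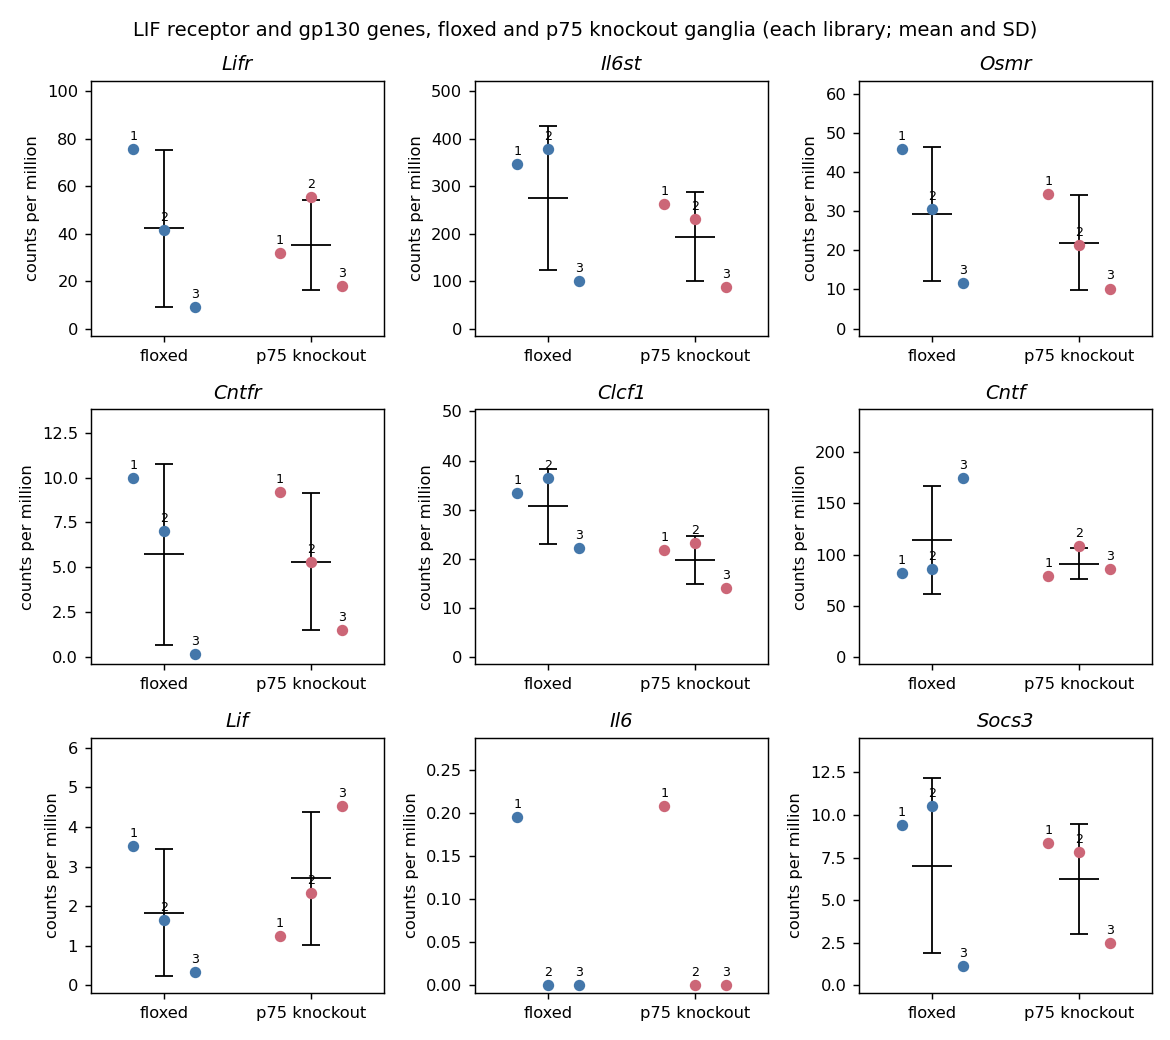
CPM (vertical axis) of the 9 genes in each floxed and p75 knockout library, numbered by replicate, with the mean and SD of 3 libraries per group as bars (none for Il6, at 1 count or 0 in each library). Replicate 3 is the lowest library of both groups for Lifr, Il6st, Osmr, Cntfr, Clcf1 and Socs3.

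Among the ligands, floxed libraries 1 to 3 held Clcf1 at 33.3, 36.5 and 22.1 CPM, and knockout libraries 1 to 3 at 21.9, 23.3 and 14.1 CPM. Each knockout library was below the floxed library of the same number, but knockout replicate 2 lay above floxed replicate 3. The means were 30.7 ± 7.55 and 19.7 ± 4.94 CPM (SD, n = 3 each) and the log2 fold change was -0.57 (SE 0.37). With the replicate block it was -0.58 (SE 0.32), and without single libraries it ranged from -0.39 to -0.73. Cntf was at 81.5, 85.8 and 175 CPM and at 79.0, 108 and 85.7 CPM, with floxed replicate 3 the highest and a log2 fold change of -0.29 (SE 0.41). Among replicates 1 and 2 alone the sign of Cntf turned to 0.25.

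Lif was close to the limit of detection in this table, with floxed libraries at 3.53, 1.66 and 0.33 CPM and knockout ones at 1.25, 2.33 and 4.53 CPM, from 2 to 27 counts. Its log2 fold change was 0.67 (SE 0.97) over all libraries and -0.44 among replicates 1 and 2. Il6 had 1 count in replicate 1 of each group and 0 in the other libraries, where a count of 0 allows up to 0.50 to 0.63 CPM (3 counts, counting error only). Il11, named after its values were seen, had 5, 12 and 46 counts in floxed and 0, 2 and 2 counts in knockout libraries, or 0.98, 2.21 and 7.60 CPM and 0, 0.42 and 0.34 CPM. Each floxed library was above each knockout library, but Il11 did not pass the filter. In the fit without a filter its log2 fold change was -3.68 (SE 1.39, unadjusted p = 0.0197, edgeR adjusted p = 0.9995).

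Of the receptors, Lifr had floxed values of 75.6, 41.7 and 9.25 CPM and knockout values of 31.9, 55.6 and 18.1 CPM, so the range of the floxed libraries took in all knockout libraries. The log2 fold change was -0.18 (SE 0.70). It turned to 0.09 with the replicate block and to 0.54 without floxed replicate 1, and was -0.34 among replicates 1 and 2. As a share of the pan-neuronal sum Lifr was 9.11%, 7.98% and 1.30% in floxed and 15.7%, 5.63% and 1.65% in knockout libraries, so its ratio to neuronal genes was not steady in this table.

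Il6st was at 346, 378 and 101 CPM and at 263, 230 and 87.4 CPM, lower in each knockout library than in the floxed library of its number (log2 fold change -0.44, SE 0.57). Osmr was at 45.8, 30.4 and 11.7 CPM and at 34.4, 21.4 and 10.2 CPM, with the same order (-0.35, SE 0.59). Cntfr was at 9.99, 7.01 and 0.17 CPM and at 9.17, 5.28 and 1.51 CPM (-0.03, SE 1.13). Socs3 was at 9.40, 10.5 and 1.16 CPM and at 8.33, 7.82 and 2.52 CPM (-0.10, SE 0.84). In replicates 1 and 2 alone the values were -0.48 for Il6st, -0.38 for Osmr, -0.16 for Cntfr and -0.22 for Socs3. Leaving out single libraries moved Il6st from -0.81 (without floxed replicate 3) to -0.09 (without knockout replicate 3) and Osmr from -0.80 (without knockout replicate 1) to 0.11 (without floxed replicate 1). Cntfr moved from -0.64 (without knockout replicate 1) to 0.64 (without floxed replicate 1), and Socs3 from -0.59 (without floxed replicate 3) to 0.31 (without floxed replicate 2). With the replicate block Cntfr was at 0.47 and Socs3 at 0.16, so neither has a direction in this table. In these 4 genes replicate 3 was the low library of both groups, and the edgeR adjusted p of each of the 8 genes tested was 0.9999.

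Replicate 3 stood apart from replicates 1 and 2 in most of the 9 genes. In a fit with genotype and replicate 3 as terms, the log2 difference of replicate 3 was -3.23 for Cntfr, -2.22 for Socs3, -1.82 for Lifr, -1.58 for Il6st, -1.48 for Osmr and -0.58 for Clcf1. It was -0.07 for Lif and 0.60 for Cntf, beside -0.04 as the median of all genes and 0.11 for Ngfr. Fibroblast markers were at 346.8 to 448.4 CPM in the replicate 3 libraries and at 1757 to 2427 CPM in the others, and Schwann cell markers at 4845 to 7223 and 16810 to 19006 CPM. Their part in the low values of Lifr, Il6st, Osmr, Cntfr and Socs3 was not tested. Mbp was the largest part of the Schwann cell sums, at 12677 of 17821 CPM in floxed replicate 1. It had 63959 to 65253 counts in replicates 1 and 2 of both groups, close to the highest count of any gene there, 65469. Whether counts were capped near that value was not tested, so the Schwann cell sums of these libraries may be too low. Neutrophil markers summed to 180 CPM in floxed replicate 1, and to at most 1.06 CPM in the 3 knockout libraries. In floxed replicate 1 the sum came from S100a8 at 53.5 CPM and S100a9 at 127 CPM. The other markers of the list, Retnlg and Ly6g, had 1 and 0 counts there, so the list did not move as a whole. S100a8 and S100a9 of that list were at 0 in floxed replicate 2 and at 0.99 and 0 CPM in floxed replicate 3, so floxed replicate 1 alone stood apart.

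**Figure D5:**
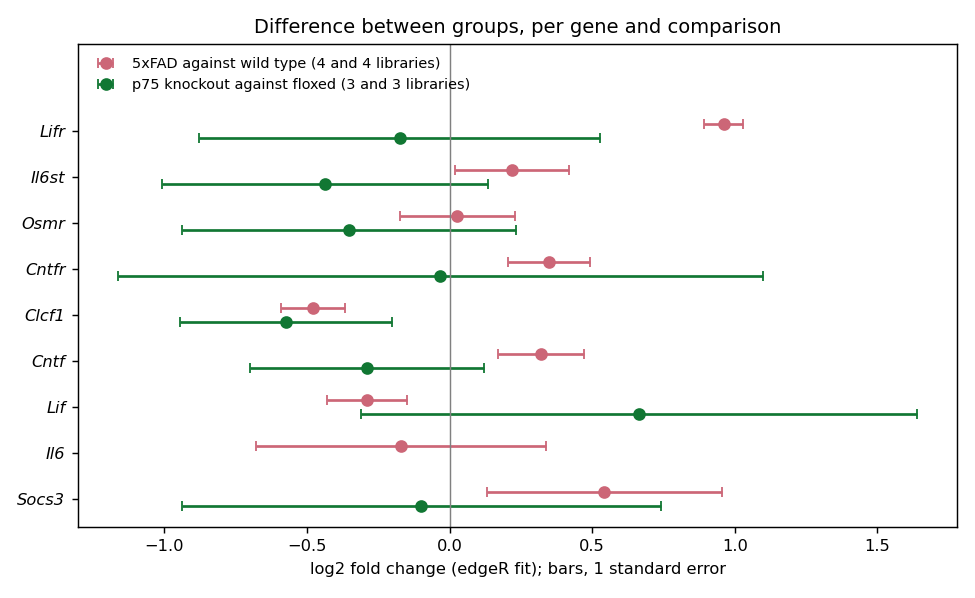
Log2 fold changes of the 9 genes (horizontal axis) with 1 standard error as bars, for 5xFAD against wild type (4 and 4 libraries) and for p75 knockout against floxed (3 and 3 libraries, without Il6). Lifr lies at 0.96 in the first and at -0.18 in the second, where the bars are wider for every gene shown, and Clcf1 lies below 0 in both, at -0.48 and -0.57.

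The 5xFAD and p75 comparisons share no library, but the tables were made separately and were not fitted together, so their levels can only be set side by side. Cntf was at 4.92 to 8.16 CPM in the 5xFAD table and 79.0 to 175 CPM in the p75 table, and Lif at 26.2 to 43.8 and 0.33 to 4.53 CPM. Il6 had 35 to 168 counts in each library of the former and at most 1 in the latter. The Schwann cell sums given above were also higher in the p75 table. The part of tissue makeup, depth and counting method in these gaps was not tested.

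Of the further pathway genes 45 were tested in the p75 table and 0 were called by edgeR, with a median log2 fold change of 0.04. Genes with the smallest p of their list were Icam1 (-2.86, SE 0.97), Gal (-2.42, SE 1.40), Il11ra1, the interleukin-11 receptor alpha chain (0.77, SE 0.46), the adaptor Grb2 (0.74, SE 0.42) and Socs7 (0.74, SE 0.41). Icam1 had 40, 18 and 141 counts in floxed libraries 1 to 3 and 14, 2 and 8 in knockout libraries 1 to 3. Gal had 6, 13 and 92 counts and 0, 3 and 16 counts, so floxed replicate 3 was the highest library for both genes. The mean of Stat3 was 65.4 CPM for floxed and 43.7 CPM for knockout (-0.52, SE 0.34). Its groups did not overlap, by a narrow gap between 59.0 CPM in floxed replicate 3 and 56.0 CPM in knockout replicate 2. The groups of Icam1, Socs7, Jak2, Socs5, Junb and Pim1 did not overlap either, where 6.10% of all genes tested had no overlap.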

How the data were processed

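RNA sequencing of dorsal root ganglia was analysed in 14 libraries from 2 tables of gene counts. The authors deposited raw counts, as whole numbers without normalization. GRCm39 was the build per the submitters' processing notes, while aligner and counter were not given in the sources used here. Groups came from titles and genotypes. Knockout columns of the p75 table are headed P75-Adv, a term the labels leave unexplained, and were assigned to the knockout samples by number and elimination. The highest count in that table was 65469 and that of the 9 genes 2048. Mbp, a Schwann cell marker, came close to the former with up to 65253 counts, and whether counts were capped was not tested.

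Each table was fitted alone in R 4.3.3 with edgeR 4.0.16 (filterByExpr, TMM, robust glmQLFit, glmQLFTest, no covariates) and Benjamini-Hochberg adjustment over all genes tested, threshold 0.05. The standard error is the size of the log2 fold change over the square root of F. Printed CPM are count over library total. The code was tested on simulated data: of the genes tested in the 5xFAD table, 96 of 100 changed 2-fold and 98 of 100 changed 4-fold were called. Of 15435 genes simulated without a change in that table, 17 were called as well.

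The members, the gene lists and the naming rule were chosen with earlier results of these data known. Named were all members, called list genes (at most 4 per list, or the smallest p), the 5 genes most like Lifr and Ngfr. Other genes were named after their values were seen. The result of 1 gene under this rule is not reported here. Promoters came from RefSeq tables of GRCm38.p6, matched by symbol, and exon lengths from the GENCODE annotation of GRCm38.

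In the p75 table the deviations from group means correlated between equal replicate numbers by 0.344, 0.310 and 0.581, all above the 0.1 taken to pair libraries, although the labels state no pairing. Libraries 1 and 2 also correlated across numbers, by 0.375 and 0.445. Alternatives were DESeq2 1.42.0 (size factors and test), upper-quartile scaling, limma-voom (limma 3.58.1), no filter, a minimum mean of 5 CPM, the replicate block, the library splits, and leaving out each library. Replicate 3 as a term and the interaction of genotype and split were added after seeing the data.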

Additional observations from a re-analysis of the deposited data

Results flagged for a closer look

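Il6 in the wild-type libraries was set apart by replicate 3, at 9.30 CPM beside 4.37 to 4.62 CPM in the others. The gap to the nearest library was 0.948 of the whole range, above the critical value for 4 samples in Dixon's test at the 95% level. It was the only one of the levels of the 9 genes in the 5xFAD table to do so, and chance alone marks about 1 in 20 groups.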

How the results depend on the processing

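Lifr kept its direction and its call in 18 of 18 alternatives of the 5xFAD comparison. Clcf1 kept its direction in all 18 and its call in 8, and it also missed the threshold with upper-quartile scaling (edgeR adjusted p = 0.0507), limma-voom (0.0519) and a mean of at least 5 CPM (0.0548). The count of 570 called genes in the 5xFAD table became 1028 with DESeq2, 1622 with the replicate block, 1866 with the split of replicates 1 and 2 against 3 and 4 as a term, and 2053 in replicates 1 and 2 alone, where 1021 were higher and 1032 lower. Called pathway genes went from 6 to 10, 12, 15 and 17 in the same settings. Leaving out single libraries gave 237 to 516 calls and 2 to 5 pathway genes, with the fewest without wild-type replicate 1 (237) and 5xFAD replicates 4 (283), 1 (323) and 2 (376). The cause was not tested. Equal replicate numbers correlated by 0.118, 0.288, 0.389 and 0.0676 in the 5xFAD table, so not all were above 0.1. Unequal numbers correlated as strongly, by 0.315 for wild-type replicate 2 with 5xFAD replicate 1 and 0.372 for wild-type replicate 3 with 5xFAD replicate 4. These values therefore cannot show or exclude a pairing of its libraries, and the labels state none. In the p75 table the 0 calls became 6 with DESeq2, 6 in replicates 1 and 2 alone, and 1 each with the replicate block and with replicate 3 as a term, and in no alternative was a cytokine gene called. Il6, Lif and Cntfr had 0 to 51 counts per library there, which limits the precision of their values.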
